A study of Caenorhabditis elegans with 27 samples.

Results

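The cuticle collagen genes of Caenorhabditis elegans that carry a col- name were followed through 27 RNA-seq libraries. The members are all genes whose name in the deposited comparison tables begins with col- and that reached at least 100 raw counts summed over the 27 libraries. This gave 128 genes of the 15432 genes that passed the same count minimum, out of 45461 features in the count table. A further 7 col genes stayed below the minimum, with col-2 and col-152 closest to it at 96 counts each, and the lowest member held 101 counts. The deposited tables do not use the name col-42, but the reference annotation gives it to Y69H2.14, which held 180010 counts (2.38% of the counts of all members, with 16 members above it). It is not a member by the rule and enters none of the shares, levels or counts, as is the case for 24 further col genes of the reference, each with at most 69 counts. The rule used no difference between conditions. The count minimum sums all libraries, however, and 13 members reach it only with their gld-2(RNAi) counts, among them col-83, col-163, col-45 and col-128.

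The animals were wild-type N2 hermaphrodites, fed from RNAi bacteria (HT115) against gld-2 or gld-4, or carrying the empty vector pL4440 as control, and harvested whole as young adults a day after the mid-L4 stage. gld-2 and gld-4 encode cytoplasmic poly(A) polymerases, enzymes that lengthen poly(A) tails in the cytoplasm and that act mainly in the germ line. From each RNAi condition the total extract (input) and the pooled non-polysomal (NP) and polysomal (P) fractions of a sucrose gradient were sequenced as poly(A)-selected RNA, in 3 replicates, which makes 9 groups. Feeding RNAi is not limited to the germ line. The gld-2(RNAi) animals were sterile and gld-4(RNAi) animals fertile. Adult extracts hold germ line, soma and any embryos inside the mother together. In such bulk samples, fewer cells of a type and less RNA per cell cannot be told apart. The targeted mRNAs followed the labels. gld-2 had 4.46, 11.1 and 6.45 counts per 1000000 counts of the library (CPM) in gld-2(RNAi) input against 56.3, 87.4 and 110 CPM in control input, and gld-4 had 9.78, 20.8 and 19.1 CPM in gld-4(RNAi) input against 118, 190 and 202 CPM in control input.

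Cuticle collagens are small secreted proteins with Gly-X-Y repeats that are made by the epidermis (hypodermis), trimmed by proteases, cross-linked and assembled into the exoskeleton. A new cuticle is laid down in the embryo and at each larval moult, the genes are switched on in waves within each moulting cycle, and different sets of collagens build the larval and the adult cuticle. The adult no longer moults. col-19 is the classical marker of the adult cuticle, and embryos start to express the collagens of the first larval cuticle late in their development. Most col genes have no described mutant of their own. The collagens found through body shape mutants carry other names (dpy, rol, sqt, bli) and were counted apart.

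The libraries held 12160686 to 18132556 counts, with a median of 15121697. Replicate 1 stood apart from replicates 2 and 3 in all 9 groups, and the col genes took part in that difference strongly. The col genes held 3.12, 1.69 and 1.70% of all counts in gld-2(RNAi) input (replicates 1 to 3), 3.33, 1.44 and 1.48% in gld-4(RNAi) input and 2.79, 1.59 and 1.67% in control input. In P the shares were 3.14, 1.83 and 1.99% in gld-2(RNAi), 4.0, 1.5 and 1.66% in gld-4(RNAi) and 2.89, 1.35 and 1.53% in control. In NP they were 1.43, 1.15 and 1.14% in gld-2(RNAi), 2.44, 0.954 and 1.07% in gld-4(RNAi) and 1.59, 0.904 and 0.923% in control. Replicate 1 was the highest in each group. For this reason the comparisons below are given with all 3 replicates and, as values for the same comparison, with replicates 2 and 3 only.

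**Figure D1:**
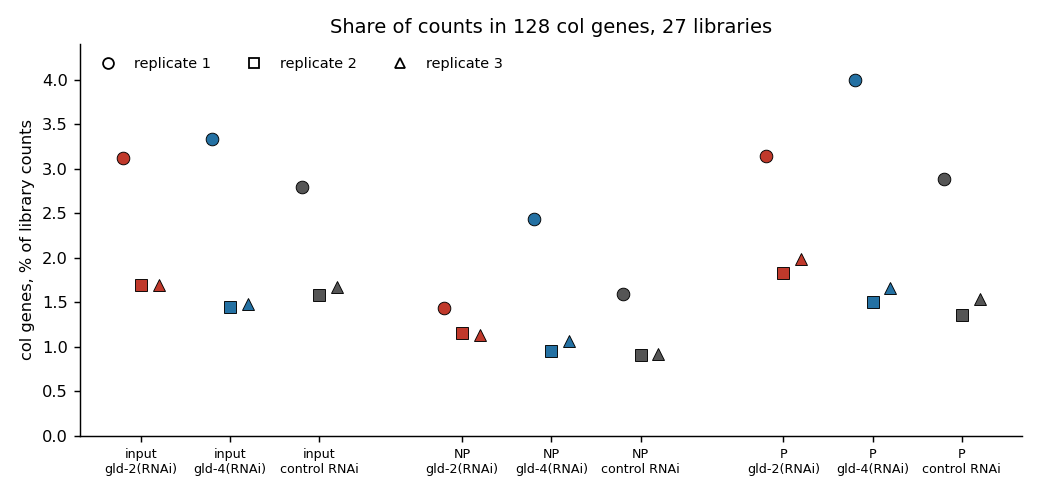
Share of all counts (%, y axis) that fell on the 128 col genes in each of the 27 libraries, by fraction (input, NP, P) and RNAi condition (x axis). Marker shapes give the replicate, and replicate 1 lies above replicates 2 and 3 in each of the 9 groups, at up to 4.0% in P of gld-4(RNAi).

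A few col genes gave most of the collagen mRNA. In control input, CPM divided by the exon length in kilobases (CPM per kb), which lets genes be compared, were at least 1000 for 6 members, between 100 and 1000 for 23, between 10 and 100 for 40, between 1 and 10 for 31 and below 1 for 28. Of the collagen CPM in control input, the 10 highest members made up 60.1%. The highest were col-140 at 1879 ± 541 CPM per kb (SD, n = 3), col-119 at 1799 ± 281 and col-20 at 1793 ± 519, and these 3 did not differ beyond their spread. The marker of the adult cuticle, col-19, stood at 874 ± 290 CPM per kb, beside col-93 at 888 ± 303 and col-184 at 897 ± 188, again within their spread. At lower levels col-12 and col-13, neighbours on chromosome V, reached 30.3 ± 25.6 and 29.4 ± 24.8 CPM per kb, and col-40 reached 0.272 ± 0.185. The members lie on all chromosomes, with 14 on I, 19 on II, 12 on III, 35 on IV, 26 on V and 22 on X, and 36 of them stand in 15 runs of direct neighbours. Neighbouring collagens can be near-identical copies, and because the authors kept only reads with a single place in the genome, the levels of such copies are uncertain.

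Of the 126 members that could be matched to the WBcel235 annotation, 45 overlap another protein-coding gene, 39 of them on the other strand and 6 on the same strand. The members not matched, col-66 and col-182, are annotated as pseudogenes. The paper's methods name a directional library kit, while its results call the sequencing non-strand-specific. The strand setting of the counting is not given in the sources used here, so reads of overlapping partners may have been mixed or set aside. Input values of the partner are given below for col-74, col-83, col-99, col-115 and col-121. col-14, col-19, col-53, col-92, col-93, col-94, col-107, col-111, col-116, col-119, col-122, col-147, col-156 and col-158 overlap other genes as well.

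The difference between replicate 1 and the others was larger than the spread between replicates 2 and 3 and ran mostly upwards. Over the 104 members with a mean of at least 1 CPM, replicates 2 and 3 differed by a median of 0.18 on the log2 scale, without regard to sign, and replicate 1 differed from their mean by a median of 1.22. Replicate 1 was higher than both others in all 9 groups for 68 members (53.1%), compared with 13.5% of all genes tested, and lower in all 9 groups for 6 members (4.69%), compared with 9.48% of all genes. Among the 6 most abundant members all were higher in all 9 groups, as were 17 of 23 at the next level, 25 of 40, 18 of 31 and 2 of 28 at the lowest level, where single counts limit what can be seen. The largest excess was that of col-129, with a median log2 ratio of replicate 1 to the others of 3.05, followed by col-81 at 2.92 and col-139 at 2.83. In input col-129 had 783, 139 and 164 CPM in gld-2(RNAi), 880, 88.1 and 91.0 CPM in gld-4(RNAi) and 864, 149 and 171 CPM in control. Its level thus differed by replicate far more than by RNAi condition.

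The members that were lower in replicate 1 in all 9 groups were col-165, col-74, col-95, col-99, col-158 and col-43. In control input col-165 had 0.0878, 56.6 and 51.5 CPM and col-74 had 0.0878, 55.8 and 50.8 CPM, where 0.0878 CPM is a single count. These mRNAs were thus nearly missing from control replicate 1 and well detected in the others. The abundant col-95 had 98.5, 357 and 394 CPM in gld-2(RNAi) input, 160, 460 and 492 CPM in gld-4(RNAi) input and 85.5, 277 and 310 CPM in control input. At each replicate number it lay above control in both RNAi conditions.

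Other gene groups moved with replicate 1 as well, beside 13.5% of all genes higher and 9.48% lower in all 9 groups. Among 20 cuticle collagens with other names, 12 were higher in replicate 1 in all 9 groups and 2 lower, and among 12 sperm genes 9 were higher and none lower. Of 12 muscle and 12 intestine genes, 7 and 10 were higher, and none lower. Of 5 cuticulins, insoluble cuticle proteins outside the collagen family, 3 were lower in all 9 groups, as were 6 of 22 moulting and epidermal regulators and 5 of 14 genes that the embryo itself expresses, with none of these lists holding a gene that was higher. The summed CPM of the embryo list in input was 8.93, 16.7 and 17.7 in gld-2(RNAi), 14, 50.1 and 50.5 in gld-4(RNAi) and 34.9, 49.7 and 53.4 in control. The part of embryos, of stage and of the other tissues in the levels of the col genes was not tested.

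The first question was whether the loss of gld-2 changes the collagen mRNAs of the whole animal. In gld-2(RNAi) input 9 col genes fell and 1 rose by 2-fold or more with an adjusted p no higher than 0.05 (edgeR's quasi-likelihood test, Benjamini-Hochberg adjustment over 15432 genes). The same thresholds called 10.1% of all genes lower and 10.7% higher, so 9 of 128 lower is near the background and 1 of 128 higher is under it. The 1 higher member, col-83, reaches the count minimum only with its gld-2(RNAi) counts, so that call is a description. The members' median log2 fold change was 0.07, beside 0.05 over all genes. The 6 most abundant members differed little, with a median of 0.19, and col-19, the adult marker, was measured at 1473, 816 and 903 CPM in gld-2(RNAi) against 1126, 641 and 676 CPM in control.

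Of the members that fell, 2 had 100 to 1000 CPM per kb in control input (col-3 and col-10), 5 had 10 to 100 and 2 had 1 to 10. col-74 had 0, 1.14 and 1.80 CPM in gld-2(RNAi) against 0.0878, 55.8 and 50.8 CPM in control, a log2 fold change of -5.27 ± 1.64 (SE, adjusted p = 0.045). Only replicates 2 and 3 carry this difference, since replicate 1 held at most a single count on either side. col-165 showed the same picture, with 0, 1.98 and 2.03 CPM in gld-2(RNAi) against 0.0878, 56.6 and 51.5 CPM in control, but with 3 replicates its adjusted p was 0.057. With the replicate number as a block it was called, at an adjusted p of 9.4e-10.

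For col-121 the values were 1.24, 0.762 and 0.750 CPM in gld-2(RNAi) against 0.614, 9.99 and 9.26 CPM in control (log2 fold change -2.98 ± 0.89, adjusted p = 0.039). col-65 had 8.85, 3.12 and 3.68 CPM in gld-2(RNAi) against 6.67, 24.8 and 27.5 CPM in control (log2 fold change -2.05). col-107 had 27.4, 12.6 and 13.7 CPM in gld-2(RNAi) against 26.9, 77.3 and 85.2 CPM in control (log2 fold change -1.95). In each of these the gld-2(RNAi) value of replicate 1 lay above that of control replicate 1, while the control was low in replicate 1 and high in replicates 2 and 3.

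The same shape was seen in 4 more abundant members. col-10 had 63.3, 26.4 and 36.8 CPM in gld-2(RNAi) against 49.2, 115 and 132 CPM in control (log2 fold change -1.36 ± 0.42, adjusted p = 0.043). col-3 had 78.8, 27.6 and 34.3 CPM in gld-2(RNAi) against 63.6, 124 and 140 CPM in control (log2 fold change -1.35). col-166 had 41.7, 17.1 and 22.4 CPM in gld-2(RNAi) against 34.3, 71.8 and 77.6 CPM in control, and col-144 had 64.8, 27.1 and 35.4 CPM against 49.2, 113 and 123 CPM, with log2 fold changes of -1.31 and -1.30. For these 4 genes the groups overlapped, because replicate 1 of gld-2(RNAi) lay above replicate 1 of control, and the calls of all 4, and those of col-121, col-65 and col-107, were lost with the replicate block.

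col-99 fell without such an exception. It is a member by its name, with a coding length of 2232 bp against 882 bp for col-10, and a place in the cuticle was not tested. It had 0.744, 1.98 and 1.2 CPM in gld-2(RNAi) against 3.25, 6.39 and 7.06 CPM in control (log2 fold change -2.21 ± 0.50, adjusted p = 0.014), and the groups did not overlap. The gene lies within daf-1, a TGF-beta type receptor gene on the other strand, which itself fell, with 11.9, 13.6 and 14.7 CPM in gld-2(RNAi) against 32.5, 33.6 and 30.3 CPM in control. col-121 overlaps daf-15, the raptor gene, in the same way, and daf-15 had 66.5, 68.8 and 65.6 CPM in gld-2(RNAi) against 135, 156 and 160 CPM in control. The part of reads from these partners in the values of col-99 and col-121 was not tested. col-74 overlaps gtap-1, with 58.6, 55.9 and 47.8 CPM in gld-2(RNAi) against 90.9, 61.9 and 62.3 CPM in control, and gtap-1 was not called.

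The 1 member that rose was col-83, a gene of very low level. Of its 404 counts over the 27 libraries 316 were in gld-2(RNAi) libraries and 88 in the others, so it is a member only through the condition in which it is high, and its values are a description. It had 3.22, 2.36 and 1.73 CPM in gld-2(RNAi) against 0.263, 0.441 and 0.20 CPM in control, a log2 fold change of 2.84 ± 0.52. It overlaps F33A8.4 on the same strand, and that gene was lower by less than 2-fold, with 66.4, 80.0 and 78.2 CPM in gld-2(RNAi) against 97.1, 106 and 109 CPM in control. The gld-4(RNAi) input values of col-83 were 0.244, 0.714 and 0.346 CPM.

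**Figure D2:**
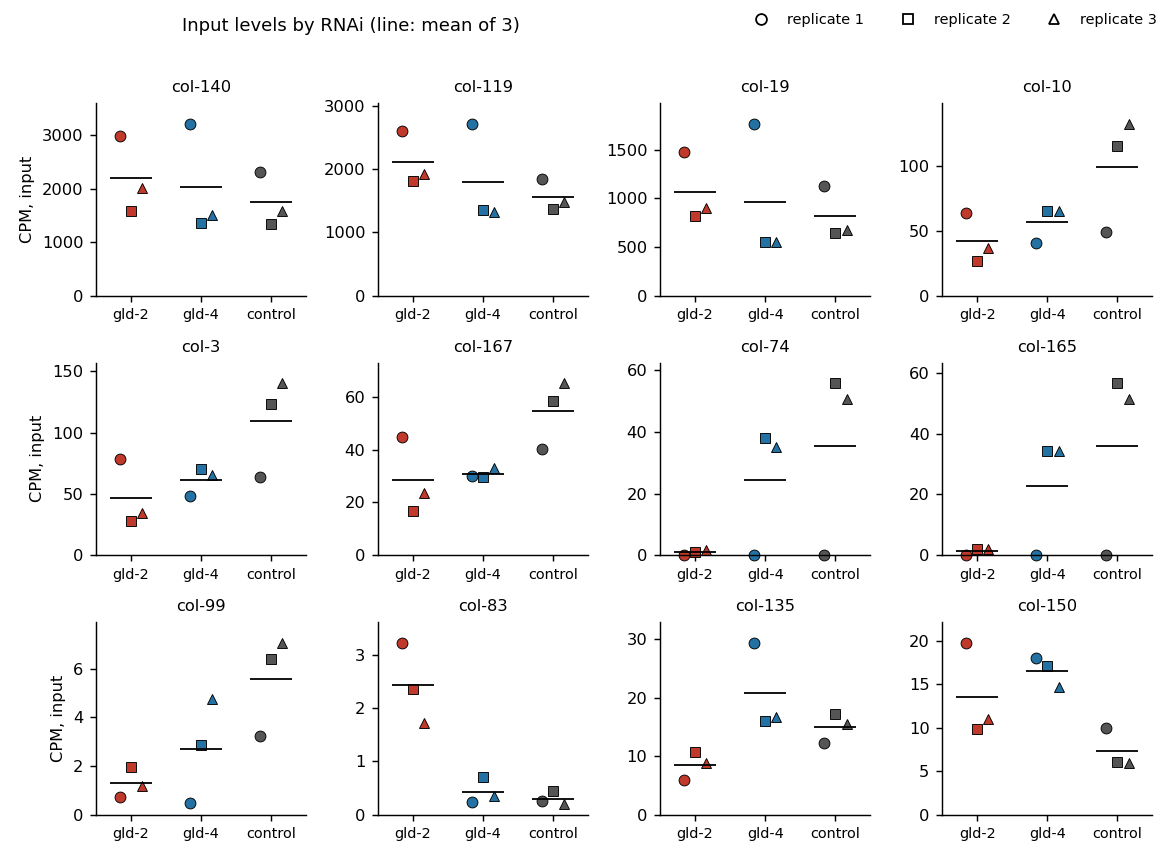
CPM in input (linear scale from 0, y axes) of 12 col genes in gld-2(RNAi), gld-4(RNAi) and control animals (x axes), 1 panel per gene, with marker shapes for the replicate and a line at the mean of 3. The abundant col-140 and col-119 differ mainly by replicate, col-10, col-3, col-167, col-74 and col-165 are low in replicates 2 and 3 of gld-2(RNAi), and col-83 is high in all 3 gld-2(RNAi) libraries.

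Among the members listed for a known stage or type, col-10, col-99 and col-144 fell as given above, while others varied mainly by replicate. col-7, which like col-19 belongs to the adult cuticle, had 26.1, 5.18 and 4.50 CPM in gld-2(RNAi) input and 22.6, 3.31 and 3.60 CPM in control input. col-17 had 21.6, 9.21 and 10.4 CPM in gld-2(RNAi) and 17.3, 4.99 and 8.46 CPM in control. col-12 had 79.2, 18.5 and 20.3 CPM in gld-2(RNAi) and 74.6, 19 and 19.7 CPM in control. In col-7, col-17 and col-12 each of these replicate 1 libraries lay above both others of its group, and none of them was called. col-14 had 33.3, 9.98 and 9.30 CPM in gld-2(RNAi) and 28.1, 25.2 and 23.3 CPM in control, so that it differed in replicates 2 and 3 only, and it was called lower without replicate 1.

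The number of col genes called lower changed when single libraries were left out. Leaving out gld-2(RNAi) replicate 2 or 3 left 1 lower, and leaving out control replicate 2 or 3 left 0. Leaving out gld-2(RNAi) replicate 1 gave 26 lower, and leaving out control replicate 1 gave 14. These counts have no share of all genes beside them, so they say nothing about the col genes in particular. Without replicate 1 on both sides, 26 col genes were lower and 5 higher, beside 14.8% of all genes in each direction. This is 20.3% of the members lower and 3.91% higher. With the replicate block 5 were lower and 5 higher, beside 11.8% and 13.2% of all genes. col-74 and col-99 were lower in all 3 of these fits. Members that need their gld-2(RNAi) counts to reach the minimum can add to the higher calls.

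In replicates 2 and 3 alone, the falls reached a range of middle-level collagens. Of the 40 members between 10 and 100 CPM per kb in control input, 16 were lower and none higher, with a median log2 fold change of -0.69, while of the 6 most abundant none was called (median 0.16). These levels were set from the control libraries themselves. The run col-167 to col-170 on chromosome X, 4 neighbours, fell together, with log2 fold changes of -1.75 to -1.53, beside -1.08 to -0.95 and no call with all 3 replicates, and col-167 had 44.7, 16.8 and 23.6 CPM in gld-2(RNAi) against 40.5, 58.6 and 65.3 CPM in control. col-3 and its neighbour col-117 on chromosome IV were also both lower. The 3 neighbours col-92, col-93 and col-94 on chromosome III, in contrast, had log2 fold changes of -0.03 to 0.02 in replicates 2 and 3 and of -0.01 to 0.03 with all 3.

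Other genes of cuticle formation were set beside the col genes, from a list of names. The same comparison called 10.1% of all genes lower and 10.7% higher. In lists this short a single call cannot be told from these shares. Of 20 cuticle collagens with other names, 7 fell in gld-2(RNAi) input and none rose: dpy-2, dpy-3, dpy-7, dpy-10, dpy-14, dpy-17 and sqt-3. dpy-7, which shapes the furrows between the rings of the cuticle, had a log2 fold change of -3.68, and sqt-3, a collagen needed from the embryo on, had -3.70. Of 22 genes listed as moulting and epidermal regulators 13 fell and none rose. Among them was nhr-23, a nuclear receptor that drives the moulting cycle, at -2.01. The list also holds lin-28 and lin-41, and the tissue in which the mRNAs of this list were made in the adults was not tested. Of 17 collagen and cuticle processing enzymes 1 rose, the prolyl hydroxylase gene phy-3, and none fell. Of 9 basement membrane genes 4 fell, the laminin genes epi-1, lam-1, lam-2 and lam-3, while the collagens emb-9, let-2 and cle-1 had log2 fold changes of -0.49, -0.58 and 0.30 and were not called. Of 5 cuticulins 1 fell, cut-2.

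The sums of the other cuticle collagens and of the cuticulins moved with replicate 1 too. The other cuticle collagens gave 343, 163 and 192 CPM in gld-2(RNAi) input against 343, 1018 and 1099 CPM in control, and the cuticulins 10.3, 12.9 and 12.2 CPM in gld-2(RNAi) against 8.25, 205 and 232 CPM in control. In both lists only replicates 2 and 3 differed. The regulators gave 237, 265 and 269 CPM in gld-2(RNAi) input against 546, 784 and 875 CPM in control, lower at each number. The basement membrane genes gave 373, 248 and 203 CPM against 416, 379 and 384 CPM. The processing enzymes gave 1500, 1707 and 1887 CPM against 1441, 1692 and 1754 CPM. The genes that the embryo expresses were lower in gld-2(RNAi) as well, 5 of 14 called lower and none higher. Their sum was 8.93, 16.7 and 17.7 CPM in gld-2(RNAi) against 34.9, 49.7 and 53.4 CPM in control. Of 12 sperm genes 11 rose, and of 13 oocyte and eggshell genes 7 fell, beside 10.7% of all genes higher and 10.1% lower. Of 12 muscle and 12 intestine genes none was called. The part of embryos and of the germ line in the lower collagen values of the sterile gld-2(RNAi) animals was not tested.

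In gld-4(RNAi) input no col gene passed both thresholds with 3 replicates, beside 0.654% of all genes called lower and 0.11% called higher by edgeR. At an unadjusted p under 0.05 there were 19 members, and DESeq2 called 1 lower and 1 higher. Shares of all genes are not given for these counts, so they have no background. A single member reached the adjusted p alone, col-170, at a log2 fold change of -0.97 ± 0.19 and an adjusted p of 0.046, which is under 2-fold. The members' median log2 fold change was -0.47, with 89 below 0 and 39 above, beside 0.02 over all genes. The median lay between -0.50 and -0.44 under the other scalings, the replicate block and without replicate 1.

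This difference was mainly that of the middle levels. Of the 40 members between 10 and 100 CPM per kb in control input 38 had a log2 fold change below 0, with a median of -0.70. Of the 6 most abundant none was below 0, with a median of 0.06, but these became -0.16 without replicate 1. Between 100 and 1000 CPM per kb 10 of 23 were below 0, and between 1 and 10 CPM per kb 24 of 31. The levels were again set from control libraries that entered the comparison.

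Without replicate 1, 16 members were lower and 2 higher in gld-4(RNAi) input, beside 1.67% and 1.58% of all genes. With the replicate block 5 were lower (col-88, col-99, col-147, col-145 and col-156) and 2 higher (col-150 and col-158), beside 1.53% and 1.33% of all genes. These calls thus rest on how replicate 1 was treated. col-3 had 48.4, 70.6 and 65.2 CPM in gld-4(RNAi) against 63.6, 124 and 140 CPM in control, so it lay under control at every number (log2 fold change -0.95, and -1.05 without replicate 1). col-10 had 40.2, 65.1 and 65.0 CPM in gld-4(RNAi) against 49.2, 115 and 132 CPM in control. col-147 had 27.3, 12.7 and 9.06 CPM in gld-4(RNAi) against 50.0, 24 and 22.9 CPM in control (log2 fold change -1.14, and -1.2 without replicate 1), and col-167 had 30.1, 29.6 and 33.0 CPM in gld-4(RNAi) against 40.5, 58.6 and 65.3 CPM in control.

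The run on chromosome X, col-167 to col-170, had similar values in its 4 members, of which none passed both thresholds with 3 replicates. They had log2 fold changes of -1.0 to -0.89 in gld-4(RNAi) input with 3 replicates and of -1.14 to -1.01 without replicate 1. In the other direction stood col-150, with 18, 17.1 and 14.7 CPM in gld-4(RNAi) against 9.92, 6.02 and 5.93 CPM in control (log2 fold change 1.05 ± 0.27, adjusted p = 0.099), without overlap of the groups. col-158 had 2.69, 5.08 and 6.08 CPM in gld-4(RNAi) against 0.878, 1.62 and 2.87 CPM in control (log2 fold change 1.24, adjusted p = 0.29). None of the other lists had a called gene in gld-4(RNAi) input with 3 replicates. The median log2 fold change of the other cuticle collagens was -0.66 and that of the cuticulins -0.95. The cuticulin sum was 6.44, 119 and 137 CPM in gld-4(RNAi) against 8.25, 205 and 232 CPM in control, and the embryo sum 14, 50.1 and 50.5 CPM in gld-4(RNAi) against 34.9, 49.7 and 53.4 CPM in control. The part of either in the collagen values was not tested.

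**Figure D3:**
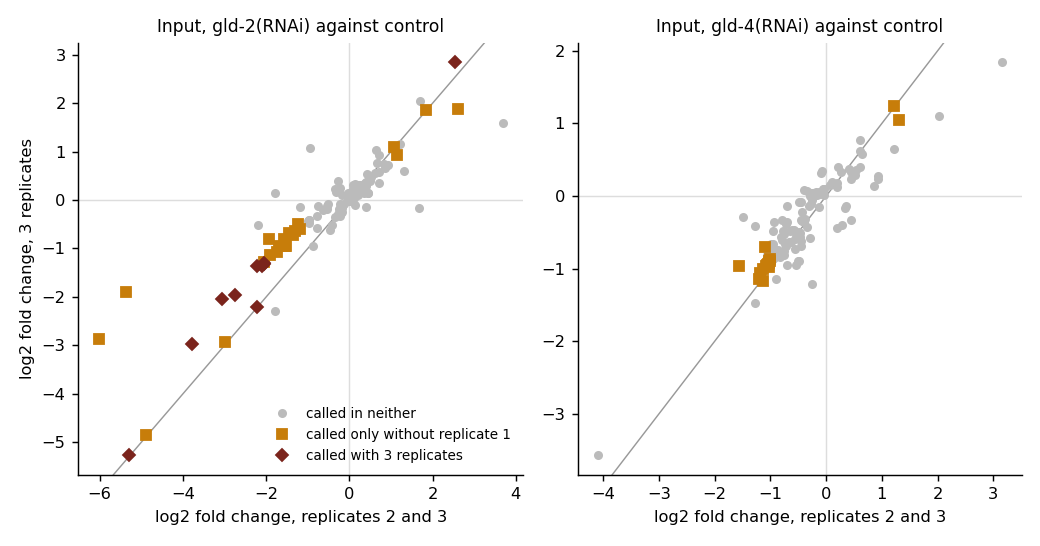
log2 fold change in input of the 128 col genes with all 3 replicates (y axis) against the value from replicates 2 and 3 (x axis), for gld-2(RNAi) against control (left) and gld-4(RNAi) against control (right), with the line of equality. Dark red diamonds were called with 3 replicates (10 members at left, none at right), orange squares only without replicate 1, and grey points in neither.

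A direct comparison of gld-2(RNAi) with gld-4(RNAi) input called 1 col gene lower and 1 higher, beside 9.23% and 7.12% of all genes. col-135 had 6.04, 10.7 and 8.85 CPM in gld-2(RNAi) against 29.4, 16.1 and 16.8 CPM in gld-4(RNAi), a log2 fold change of -1.36 ± 0.35 (adjusted p = 0.027), without overlap of the groups. In control it had 12.2, 17.3 and 15.5 CPM. col-83, a member only through its gld-2(RNAi) counts, had a log2 fold change of 2.36 ± 0.57. Without replicate 1 there were 14 lower and 12 higher, beside 14.8% and 13.1% of all genes, and with the replicate block 4 lower and 12 higher, beside 12.2% and 12.7%. col-135 was then lower by -0.85 on the log2 scale without replicate 1, under 2-fold.

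The gradient fractions gave the comparison within non-translating and translating mRNA. In NP of gld-2(RNAi), 6 col genes fell and 5 rose, beside 11.9% and 12.5% of all genes. Those lower were col-165 (log2 fold change -5.29), col-74 (-5.15), col-131 (-4.26), col-65 (-2.38), col-115 (-1.90) and col-34 (-1.0). Those higher were col-128 (4.03), col-163 (3.75), col-83 (2.45), col-53 (2.39) and col-45 (1.67), all of them below 1 CPM per kb in control input. Of these 5, only col-53 reaches the count minimum without its gld-2(RNAi) libraries, so the higher count gives no support for a rise of col genes. col-83 had 3.62, 2.38 and 2.30 CPM in gld-2(RNAi) NP against 0.415, 0.582 and 0.378 CPM in control NP, and col-163 had 0.148, 2.33 and 1.88 CPM against 0.138, 0.0485 and 0.108 CPM. The higher values of col-163 thus lay in replicates 2 and 3. col-115 overlaps rig-4 on the other strand, with 141, 175 and 181 CPM in gld-2(RNAi) input against 209, 211 and 220 CPM in control input.

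In P of gld-2(RNAi), 3 col genes fell and 2 rose, beside 8.77% and 8.16% of all genes. col-121 had 0.797, 1.4 and 1.74 CPM in gld-2(RNAi) P against 2.40, 21.6 and 21.9 CPM in control P (log2 fold change -3.71 ± 0.86, adjusted p = 0.024). col-99 had 1.59, 4.49 and 3.26 CPM in gld-2(RNAi) P against 6.33, 14.3 and 16.8 CPM in control P (log2 fold change -2.17), and col-65 fell by 2.14. The members that rose were col-163 (log2 fold change 3.28) and col-83 (2.82). col-83 had 2.39, 2.04 and 1.6 CPM in gld-2(RNAi) P against 0.257, 0.313 and 0.171 CPM in control P. col-163 and col-83 are members only through their gld-2(RNAi) counts, so both calls are descriptions. For col-99 and col-121 the groups did not overlap in P. When single libraries were left out, 0 to 24 members were lower and 2 to 6 higher in NP, and 0 to 20 lower and 1 to 5 higher in P. Shares of all genes are not given for these fits.

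Without replicate 1 the fractions showed more calls. In gld-2(RNAi), 31 members were lower and 10 higher in NP, beside 15.7% and 16.9% of all genes, and 31 lower and 6 higher in P, beside 16.4% and 13.9%. With the replicate block, 20 were lower and 6 higher in NP, beside 14.1% and 14.1% of all genes, and 8 lower and 2 higher in P, beside 13.1% and 11.5%. The lower share of members without replicate 1, 24.2% in both fractions, was above that of all genes and the higher share below it.

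In gld-4(RNAi) no col gene was called in either fraction with 3 replicates. edgeR called 0.784% of all genes lower and 0.531% higher in NP, and 0.149% lower and 0.0713% higher in P. At an unadjusted p under 0.05 there were 13 members in NP and 10 in P, and DESeq2 called none in NP and 1 higher in P. These counts, too, have no share of all genes beside them. Without replicate 1 there were 4 lower and 2 higher in NP (beside 0.823% and 1.74% of all genes) and 6 lower and 2 higher in P (beside 0.745% and 2.34%). The replicate block gave 1 higher member in each fraction, col-158 (beside 0.991% of all genes lower and 2.84% higher in NP, and 0.389% lower and 1.8% higher in P). Between 10 and 100 CPM per kb, 36 of 40 members in NP and 38 of 40 in P had a log2 fold change below 0, with medians of -0.40 and -0.29. The members' medians were -0.17 in NP and -0.11 in P. Without replicate 1 they were -0.26 with 92 of 128 below 0 in NP and -0.40 with 100 of 128 below 0 in P, and the block gave -0.19 and -0.23. With library size alone as scaling they were -0.09 and -0.02, beside medians of all genes of 0.15 and 0.24.

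Collagen mRNAs had higher P/NP ratios than most genes. In control animals the ratio of P to NP had a median log2 value of 1.03 over the 128 members, with 116 of them above 0, beside 0.11 over all genes. These ratios compare CPM of each fraction, scaled within the sequenced libraries, and do not give the share of molecules on polysomes. With library size alone the members' median was 0.78 beside -0.13 over all genes, so the members kept their place above the other genes. With the same thresholds 22 members were higher in P and 1 higher in NP, beside 10.9% and 12.5% of all genes. Without gradient 1 there were 48 higher in P and 2 in NP (beside 15.1% and 16.5% of all genes), with the block that pairs the fractions of 1 gradient 60 and 1 (beside 17.3% and 14.6%), and without gradient 2 or 3 there were 13 or 11 higher in P.

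The members with the largest ratios were of low level. col-180 had 21.1, 5.13 and 9.13 CPM in control P against 3.53, 1.31 and 0.917 CPM in control NP (log2 ratio 2.66 ± 0.67, adjusted p = 0.017). col-135 had 19.8, 13.4 and 15.8 CPM in control P against 4.01, 2.81 and 2.05 CPM in control NP (log2 ratio 2.49 ± 0.28, adjusted p = 4.8e-04). Among the abundant members, col-119 had 2079, 995 and 1106 CPM in control P against 839, 507 and 497 CPM in control NP (log2 ratio 1.21 ± 0.33, adjusted p = 0.024), and col-122 and col-181 had log2 ratios of 1.31 and 1.48. The run col-167 to col-170 had ratios of 1.5 to 1.61 with adjusted p of 1.4e-04 to 0.0011. The most abundant member, col-140, had a log2 ratio of 0.76 ± 0.49 and was not called (adjusted p = 0.26).

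Of the 12 members with a log2 ratio below 0, col-116 was the one called, with 0.599, 0.313 and 0.457 CPM in control P against 1.04, 2.18 and 1.24 CPM in control NP (log2 ratio -1.71 ± 0.47, adjusted p = 0.024), and without gradient 1 col-45 was called as well. col-116 is near the detection limit and shares its strand with the overlapping gene F17E9.2. col-76 and col-111 had ratios below 0 in all 9 gradients without a call in control. A high P/NP ratio was not particular to the col genes. Of 20 cuticle collagens with other names 1 was called higher in P (17 with the block), with a median log2 ratio of 1.33. Of 12 muscle and 12 intestine genes 9 and 10 were called. Over all genes, 10.9% were called higher in P (17.3% with the block).

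The P/NP ratios were then compared between RNAi conditions. By gradient the members' median log2 P/NP was 1.17, 0.98 and 1.17 in gld-2(RNAi), 1.23, 0.75 and 0.86 in gld-4(RNAi) and 1.05, 0.79 and 0.97 in control, beside -0.04 to 0.17 over all genes. In single gradients 103 to 110 members lay above 0 in gld-2(RNAi), 113 to 116 in gld-4(RNAi) and 113 to 115 in control. The change of P/NP in gld-2(RNAi) relative to control, fitted over 12 libraries as the interaction of fraction and RNAi, was called for no member, beside 0.0454% of all genes lower and 0.713% higher by edgeR. A single member had an unadjusted p under 0.05, and DESeq2 called none, both without a share of all genes beside them. With the block 2 members were called, beside 2.7% of all genes lower and 1.41% higher. col-121 had log2 P/NP ratios of -0.88, -0.46 and -0.14 in gld-2(RNAi) gradients against 0.97, 1.48 and 1.06 in control gradients, and col-176 had 1.61, 1.33 and 2.05 in gld-2(RNAi) gradients against 0.29, 0.59 and 0.61 in control gradients. For both the groups did not overlap.

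Without gradient 1, 4 members had a lower P/NP in gld-2(RNAi), col-187, col-121, col-76 and col-99, and none a higher one, beside 3.88% and 2.18% of all genes. The median change was 0.19 on the log2 scale beside -0.02 over all genes, and it turned to -0.03 beside -0.24 over all genes with library size alone. By level in control input, the 6 most abundant members and the 23 between 100 and 1000 CPM per kb all had a change above 0 with TMM scaling, with medians of 0.37 and 0.32, and none of them was called. In gld-4(RNAi) no member changed its P/NP with 3 gradients, beside 0.0% of all genes in either direction, and the count stayed at 0 with the block, without gradient 1 and in DESeq2. The median change was 0.00 with 63 of 128 below 0, and -0.18 with 96 of 128 below 0 without gradient 1. No member reached an unadjusted p under 0.05, where 585 of all genes did. The median standard error of a change, derived from the test statistic, was 0.82 to 1.03 on the log2 scale, by level. A 2-fold change thus lay near a single such error, but these values are unstable for changes near 0. The fit had no gradient term, so the difference of replicate 1 entered these errors. They do not give the precision of ratios paired within a gradient.

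**Figure D4:**
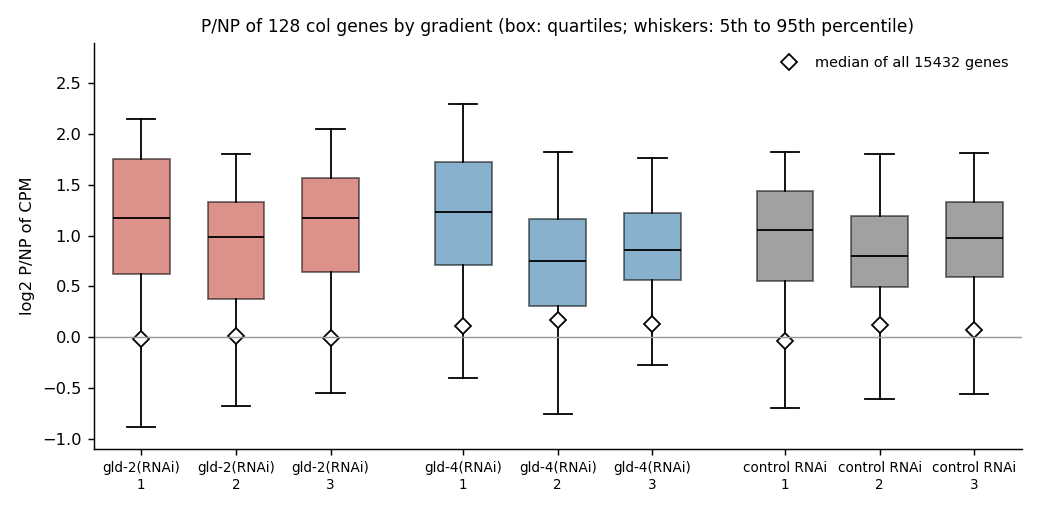
log2 P/NP of the 128 col genes in each of 9 gradients (x axis, by RNAi condition and replicate), with boxes at the quartiles, whiskers at the 5th and 95th percentile and a white diamond at the median of all 15432 genes. The col medians lie at 0.75 to 1.23, above the medians of all genes at -0.04 to 0.17.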

How the data were processed

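RNA of whole young adults was sequenced by the authors as input, NP and P in 3 replicates of each RNAi condition. The deposited counts are raw read counts per gene. The authors trimmed adapters, mapped with TopHat2 (WS220 genome), kept single-place alignments and counted with featureCounts of Subread 1.4.0. Luciferase RNA was added to fractions only and is not used here. The deposited comparison tables hold the authors' log2 fold changes and p-values, of which none was used, and 72 per-sample columns, also not used. They served for gene names.

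Each comparison was fitted on its own 6 libraries (12 for P/NP changes, as an interaction) by edgeR's robust quasi-likelihood test with TMM scaling over the 15432 genes with at least 100 counts, two-sided, with Benjamini-Hochberg adjustment. A gene was called when it changed at least 2-fold and its adjusted p did not exceed 0.05. The standard errors (SE) given are the absolute log2 fold change divided by the square root of the test's F statistic. Ratios for single libraries used 0.1 CPM as pseudocount. Alternatives were DESeq2, library size alone, 2 other filters, a replicate block, and leaving out libraries or replicate 1. Shares of all genes are given only for the main fit, the block and the fit without replicate 1. Members and lists were chosen with earlier results of these data known. The genes named are the 10 members with the highest CPM per kb in control input. Named as well are col genes listed for a known stage or type (such as col-7, col-12, col-19 and col-99), whether or not they act in the cuticle. For each comparison, the called members of largest fold change with the same direction at each replicate number were added. These were up to 8 per direction in input against control and up to 4 elsewhere. The other members named were chosen after their values were seen.

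For the block, the numbers of the labels were taken to pair libraries. Libraries of the same replicate number deviated from their group means together in each comparison (correlations 0.286 to 0.796). Libraries of different numbers correlated at -0.726 to 0.629. Replicates 2 and 3 correlated across numbers about as well as within them. Replicate 2 of gld-4(RNAi) input correlated at 0.449 with control replicate 3 and at 0.438 with control replicate 2. The correlations thus set replicate 1 apart and cannot tell whether 2 pairs with 2 and 3 with 3. Replicates differed by more than counting error (chi-square per degree of freedom 5.88 to 119). Nothing in the labels says that they came from separate cultures, so p-values measure only the spread between these samples, which may be technical. Exon lengths, neighbours and overlaps came from the WBcel235 annotation, a later assembly, so no positions are given. The steps were tested on simulated counts with 200 changed genes. Those counts had a capped dispersion and no difference of replicate 1, so that test does not cover the spread seen here. Fits ran in R 4.3.3 with edgeR 4.0.16 and DESeq2 1.42.0, summaries in Python 3.11.15 with numpy 2.4.6 and pandas 2.3.3, and plots in matplotlib 3.10.9.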

Additional observations from a re-analysis of the deposited data

How the results depend on the processing

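Counts of called col genes moved more with the treatment of replicate 1 than with the tool. Without replicate 1 there were 26 lower and 5 higher in gld-2(RNAi) input, 16 and 2 in gld-4(RNAi) input, 14 and 12 in gld-2(RNAi) against gld-4(RNAi) input, 31 and 10 in NP of gld-2(RNAi), 4 and 2 in NP of gld-4(RNAi), 31 and 6 in P of gld-2(RNAi), 6 and 2 in P of gld-4(RNAi), 2 and 48 in control P against NP, and 4 lower in the P/NP change of gld-2(RNAi). With the replicate block, which pairs libraries of the same number, there were 5 lower and 5 higher in gld-2(RNAi) input, 5 and 2 in gld-4(RNAi) input, 4 and 12 in gld-2(RNAi) against gld-4(RNAi) input, 20 lower in NP and 8 lower in P of gld-2(RNAi), 1 higher in NP and 1 higher in P of gld-4(RNAi), 60 higher in control P against NP, and 1 lower and 1 higher in the P/NP change of gld-2(RNAi). The pairing moved no other count by over 1.5 times.

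DESeq2 called 1 lower and 1 higher in gld-4(RNAi) input, 3 lower in gld-2(RNAi) against gld-4(RNAi) input, 10 lower in NP and 6 lower in P of gld-2(RNAi), and 1 higher in P of gld-4(RNAi). Library size alone gave 1 higher in P of gld-2(RNAi). With no filter beyond 1 count there were 5 lower in gld-2(RNAi) input and 3 lower in NP of gld-2(RNAi). With a mean of at least 100 normalized counts in input, which kept 78 members, there were 2 lower and 0 higher in gld-2(RNAi) input, 1 higher in gld-4(RNAi) input, 0 higher in gld-2(RNAi) against gld-4(RNAi) input, 3 lower and 0 higher in NP of gld-2(RNAi), 1 higher in NP of gld-4(RNAi), 1 lower and 0 higher in P of gld-2(RNAi), and 0 lower in control P against NP.

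With single libraries left out there were 0 to 26 lower and 1 to 3 higher in gld-2(RNAi) input, 0 to 1 lower in gld-4(RNAi) input, 0 to 7 lower and 0 to 6 higher in gld-2(RNAi) against gld-4(RNAi) input, 0 to 24 lower and 2 to 6 higher in NP of gld-2(RNAi), 0 to 1 higher in NP of gld-4(RNAi), 0 to 20 lower and 1 to 5 higher in P of gld-2(RNAi) and 0 to 1 lower in P of gld-4(RNAi). Leaving out 1 gradient gave 0 to 2 lower and 11 to 48 higher in control P against NP, and 0 to 1 lower in the P/NP change of gld-2(RNAi). No named member changed sign, but the balance of calls did: without control replicate 2 or 3 there were 0 lower and 1 higher in gld-2(RNAi) input and 0 lower and 3 higher in NP of gld-2(RNAi), and 0 lower and 3 higher there without gld-2(RNAi) replicate 2. Shares of all genes are not given for these fits, so the counts have no background. The cause of these differences was not tested. The 28 members below 1 CPM per kb are limited by depth.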
